A study of Caenorhabditis elegans with 27 samples.

Results

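The 93 protein-coding genes of *Caenorhabditis elegans* described here carry the spermatogenesis names *spe*, *fer*, *ssp*, *ssq*, *msd*, *nspd* or *msp* followed by a number in the WBcel235 annotation, or are *gsp-3* or *gsp-4*. The values are counts of small interfering RNAs (siRNAs), that is, of reads that lie antisense to a gene's coding sequence, and not counts of the gene's mRNA. Of the 93 genes, 50 had a row among the 20150 small RNAs (sRNAs) of the table, 10062 of which were siRNAs of protein-coding genes. The 50 comprised 19 of 31 *msp*, 16 of 29 *spe*, 6 of 10 *nspd*, 4 of 12 *ssp*, 2 of 4 *msd* and 1 of 4 *ssq* genes and both *gsp* genes, and the only *fer* gene was not listed. The filter on low counts kept 21 of the 50.

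The study asked how loss of poly(U) polymerases (PUPs), enzymes that add uridines to RNA 3′ ends, alters sRNAs. The RNA came from whole adult hermaphrodites at day 1 of adulthood, grown at 22 °C, with 3 libraries of each of 7 mutants and 6 of wild type. The single mutants were *pup-1(0)* (allele *tm1021*), *pup-2(0)* (*tm4344*), *pup-3(0)* (*tm5089*) and *pup-4(0)* (*om141*). The double mutant, *pup-1/-2(0)*, carried *om129*, the triple mutant added *pup-3(0)* to it, the quadruple mutant added both *pup-3(0)* and *pup-4(0)*, and wild type was the N2 strain. Strains lacking PUP-1 or PUP-2 were kept over the *qC1gfp* balancer, and the animals harvested from them lacked both maternal and zygotic product. The siRNAs of the *pup* genes did not follow the deletions alike. Those of *pup-1* averaged 1119 ± 56.3 CPM in *pup-1(0)* (SD, n = 3) and 1217 ± 220 CPM in wild type (SD, n = 6). They averaged 830 CPM in *pup-1/-2(0)*, 800 in the triple and 824 in the quadruple mutant. No library of these exceeded 933 CPM, and none of wild type was under 954 CPM. Those of *pup-3* averaged 174 CPM in *pup-3(0)*, against 59.0 in wild type. They averaged 9.62 CPM in *pup-1(0)* and 12.5 in *pup-1/-2(0)*. The triple mutant, at 32.1, and the quadruple mutant, at 41.8, were thus below wild type but above *pup-1/-2(0)*, to which they add *pup-3(0)*.

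Hermaphrodites of this species make sperm in the last larval stage and then switch to oocytes, so that adults hold stored sperm while the germline makes oocytes. The major sperm proteins (MSPs), encoded by many near-identical *msp* genes, form the cytoskeleton that moves the crawling sperm and also signal to oocytes to mature. Argonaute proteins with their siRNAs act on the transcripts of spermatogenesis genes, and ALG-3 and ALG-4 with 26-nt siRNAs do so in the male germline.

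Library totals ran from 972048 to 17562388 counts. Levels are given as CPM, with library sizes scaled by edgeR's TMM factors, and 3 counts, taken as the least that a library can show, were worth between 0.144 and 3.74 CPM. Intervals and floors cover counting error only. A siRNA was called differentially abundant (DA) where edgeR's quasi-likelihood test across all 9645 sRNAs kept gave an adjusted p below 0.05 and the log2 fold change was beyond 1 in either direction. Whole animals were sequenced, so fewer germ cells of a type and fewer siRNAs per cell cannot be told apart. The replicates were described as independent, with no library batch named in the sources used here. The methods set 3 wild-type replicates beside the mutants as run together with them, without saying which.

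The 50 listed genes fell into 2 kinds by level. The siRNAs of *msp-152*, *spe-15*, *spe-44* and *spe-48* were counted in every library. The siRNAs of the other 46 were at 0 in some library, and 29 of these, with 1 to 79 counts each over all 27 libraries, were too low to test. Among the untested were *spe-9*, an EGF-repeat protein of the sperm surface needed at fertilization (79 counts), *msd-4* (71 counts) and *spe-26*, a kelch-repeat protein (59 counts).

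In 3 libraries the siRNAs of the 46 sparse genes stood above the rest, and this bears on every result below. Their summed level was 122.9 and 133.7 CPM in *pup-1/-2(0)* replicates 2 and 3 and 230.6 CPM in wild-type replicate 1, while the other 24 libraries held between 3.17 and 42.1 CPM. These 3 libraries held 37.9% of the counts of the 46 genes but 7.85% of all reads. The highest level of 36 of the 46 genes was in 1 of them (5 in *pup-1/-2(0)* replicate 2, 11 in *pup-1/-2(0)* replicate 3 and 20 in wild-type replicate 1). The 3 libraries were picked by their high sums, so the 37.9% and the 36 of 46 follow in part from that choice. The same share over all siRNAs was not counted. Wild-type replicate 1 was shallow, and 1 count there was worth 0.705 CPM. Genes such as *msp-57*, with 1 count there, and *ssp-19*, with 2, can therefore be highest in it through depth alone.

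**Figure D1:**
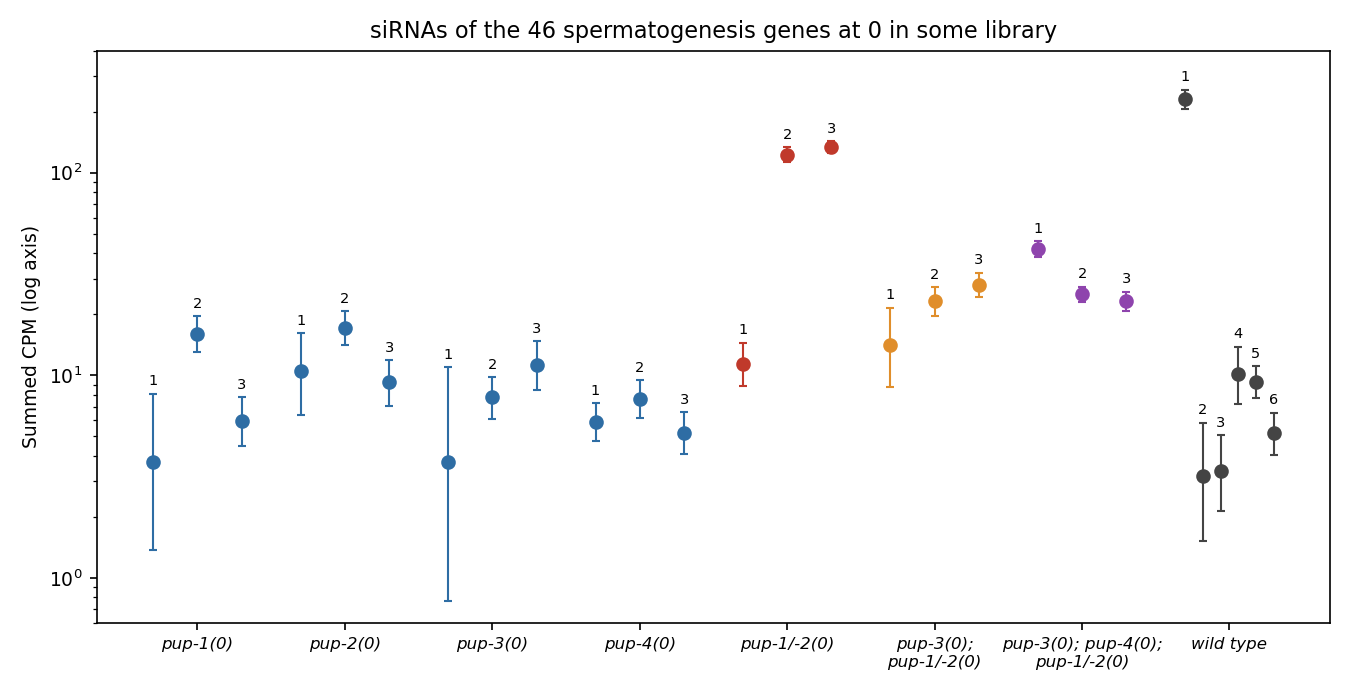
Summed CPM of the siRNAs of the 46 sparse genes in each library (log axis), by genotype, with the replicate number above each point and 95% Poisson intervals of the summed count as bars. *pup-1/-2(0)* replicates 2 and 3 (122.9 and 133.7 CPM) and wild-type replicate 1 (230.6 CPM) lie above the other 24 libraries, which reach 42.1 CPM at most.

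The same 3 libraries differed from the others in further measures. miRNAs made up 47.4% and 46.01% of the counts in *pup-1/-2(0)* replicates 2 and 3 and 41.2% in wild-type replicate 1, against 14.9% to 40.2% in the other 24. A list of 8 miRNAs of adult and other tissues summed to 291997 and 246022 CPM in *pup-1/-2(0)* replicates 2 and 3 and 339651 CPM in wild-type replicate 1, above the 38807 to 173757 CPM of the others. The siRNAs of 9 listed somatic genes (111, 108 and 18.3 CPM in the same order) lay inside the range of the others, 6.33 to 224 CPM, as did the siRNAs of 12 listed oocyte and eggshell genes (2629, 2657 and 2320 CPM, against 2258 to 4334 CPM). Their part in the levels of the spermatogenesis siRNAs was not tested. With library totals as the only scaling, the sums of the 46 sparse genes were 95.7 and 107 CPM in *pup-1/-2(0)* replicates 2 and 3 and 159 CPM in wild-type replicate 1, against 2.91 to 48.2 CPM in the others. In wild-type replicate 1, 406 of 10062 siRNAs were over 5 times the highest other wild-type library plus 0.5 CPM, 14 of the 50 spermatogenesis genes among them, and each of the other wild-type libraries had 0 to 7 such siRNAs and 0 of these genes.

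The makeup of the sparse siRNAs differed between these libraries. *nspd-5*, a nematode-specific peptide of group D, held 19.6% and 22.7% of the sparse counts in *pup-1/-2(0)* replicates 2 and 3 and 9.48% in wild-type replicate 1. *ssp-34*, an MSP-domain protein of the sperm-specific class P, held 13.7% and 13.6% in *pup-1/-2(0)* replicates 2 and 3 and 22.6% in wild-type replicate 1. *spe-10*, a palmitoyltransferase of the fibrous body-membranous organelles that package MSP, held 16.5% in wild-type replicate 1, where only *ssp-34* held more. By role, the class P genes summed to 20.5 and 23.6 CPM in *pup-1/-2(0)* replicates 2 and 3 and 71.2 CPM in wild-type replicate 1, against 0 to 7.17 CPM elsewhere. The *nspd* genes summed to 44.1, 60.2 and 40.9 CPM in the same order, against 0 to 9.51 CPM elsewhere. The siRNAs of *ssq-4*, of the sperm-specific class Q, were at 0 in all 6 wild-type libraries and had 0, 1.27 and 1.01 CPM in *pup-1/-2(0)*.

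In the other 24 libraries the sums of the sparse siRNAs, given here with no test, also differed between genotypes. The sum was 11.4 CPM in *pup-1/-2(0)* replicate 1, 14.1, 23.2 and 28.0 CPM in the triple mutant and 42.1, 25.1 and 23.2 CPM in the quadruple mutant, against 3.17 to 10.1 CPM in wild-type replicates 2 to 6. In the single mutants it was 3.72, 16.01 and 5.97 CPM in *pup-1(0)*, 10.4, 17.2 and 9.26 CPM in *pup-2(0)*, 3.74, 7.79 and 11.2 CPM in *pup-3(0)* and 5.91, 7.65 and 5.21 CPM in *pup-4(0)*. All libraries of the triple and quadruple mutants were thus above wild-type replicates 2 to 6 and below replicate 1, and the libraries of each single mutant overlapped those of replicates 2 to 6. Over the 6 wild-type libraries the sum averaged 43.6 ± 91.6 CPM (SD, n = 6), and without replicate 1 it averaged 6.23 ± 3.28 CPM (SD, n = 5).

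**Figure D2:**
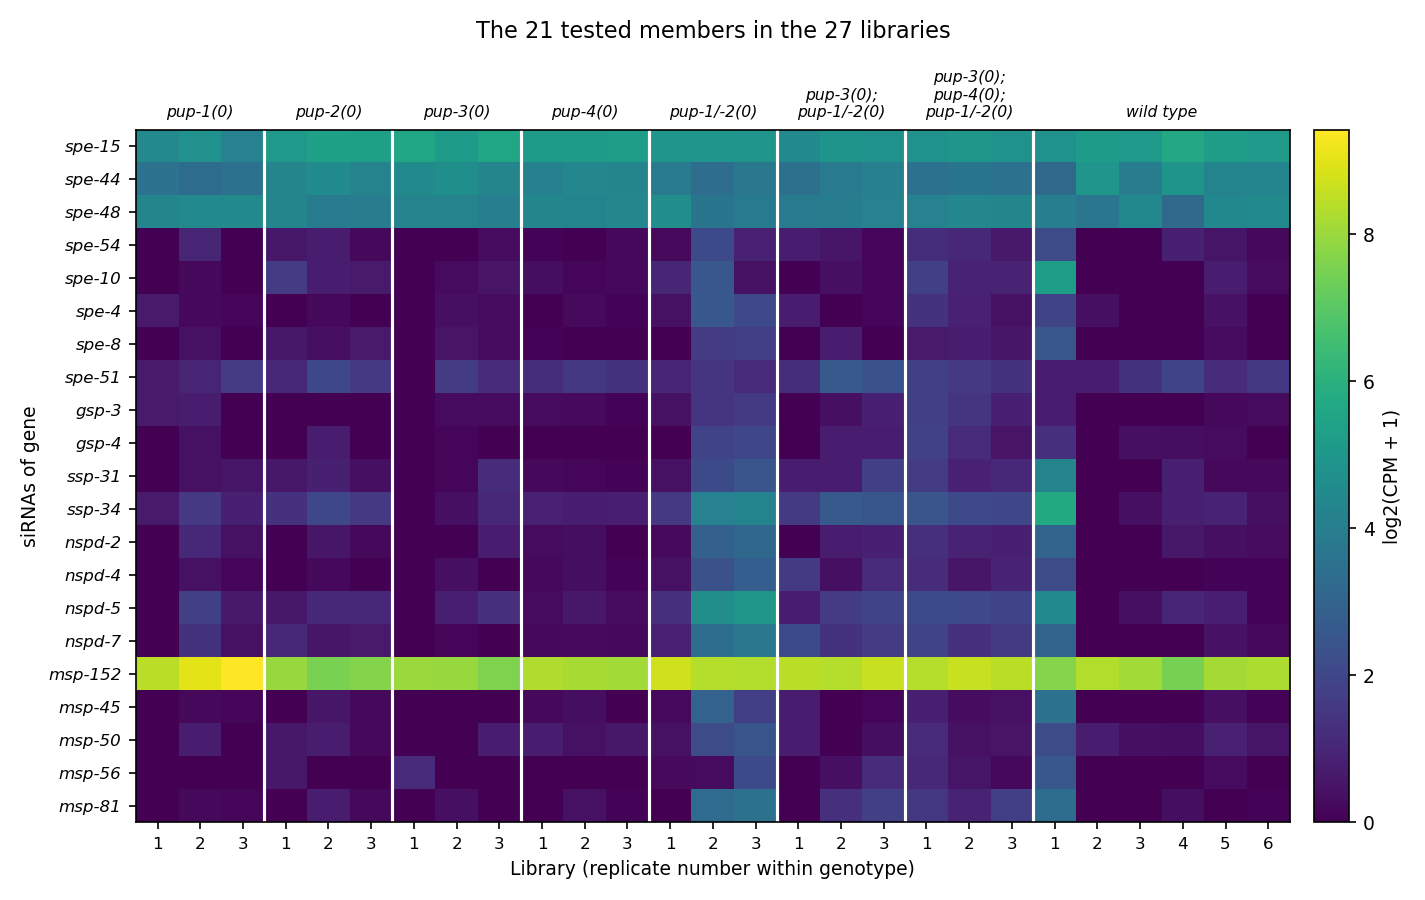
siRNA level of the 21 tested genes (rows) in the 27 libraries (columns, grouped by genotype), as log2(CPM + 1) in colour. *spe-15*, *spe-44*, *spe-48* and *msp-152* are present in each library, and most other genes are brightest in *pup-1/-2(0)* replicates 2 and 3 and in wild-type replicate 1.

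Of the genes of transcription and cytoskeleton, *spe-15* (WBGene00004969), on the plus strand of chromosome I from 1446497 to 1465358 in WBcel235, encodes an unconventional myosin that acts as budding spermatids are freed of their residual body. Its siRNAs had 20.5, 26.1 and 16.8 CPM in *pup-1(0)*, against 26.8 to 49.9 CPM in wild type with a median of 34.0. All 3 *pup-1(0)* libraries were below every wild-type library, as for 12.1% of all sRNAs tested, and the log2 fold change was -0.75 (SE 0.17, adjusted p = 0.00128, edgeR's quasi-likelihood test), inside the fold threshold for DA. In the triple mutant the siRNAs of *spe-15* had 21.5, 28.2 and 26.9 CPM, overlapping wild type, with a log2 fold change of -0.47 (SE 0.17, adjusted p = 0.0370, edgeR). Levels in *pup-1/-2(0)* (29.2 to 30.1 CPM) and the quadruple mutant (27.4 to 30.7 CPM) also lay inside the wild-type range.

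*spe-44* (WBGene00007732), chromosome IV, 12452063 to 12454215, minus strand, encodes a transcription factor that activates many sperm genes. Its siRNAs had 11.2, 9.15 and 10.5 CPM in *pup-1(0)*, 14.1, 9.29 and 12.6 CPM in *pup-1/-2(0)* and 10.4, 11.7 and 10.7 CPM in the quadruple mutant, against 8.46 to 29.1 CPM in wild type with a median of 18.03. The lowest wild-type value was that of replicate 1, and the other 5 wild-type libraries, at 14.8 to 29.1 CPM, were above all of these mutant libraries. The log2 fold change was -0.94 (SE 0.27, adjusted p = 0.00848, edgeR) in *pup-1(0)*, -0.71 (SE 0.26, adjusted p = 0.0387, edgeR) in *pup-1/-2(0)* and -0.84 (SE 0.26, adjusted p = 0.0130, edgeR) in the quadruple mutant. With wild-type replicate 1 left out, it passed the fold threshold in *pup-1(0)* (-1.19, adjusted p = 0.000146, edgeR) and the quadruple mutant (-1.04).

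The siRNAs of *spe-48* (WBGene00021771, chromosome I, 1950594 to 1958527, minus strand) ranged from 8.57 to 23.3 CPM over all libraries, both ends in wild type and *pup-1/-2(0)*, and passed no test. They averaged 20.8 ± 1.40 CPM in *pup-1(0)* and 18.4 ± 1.33 CPM in the quadruple mutant (SD, n = 3 each) and 16.2 ± 5.07 CPM in wild type (SD, n = 6). The log2 fold change of *pup-1(0)* over wild type was 0.35 (SE 0.23).

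**Figure D3:**
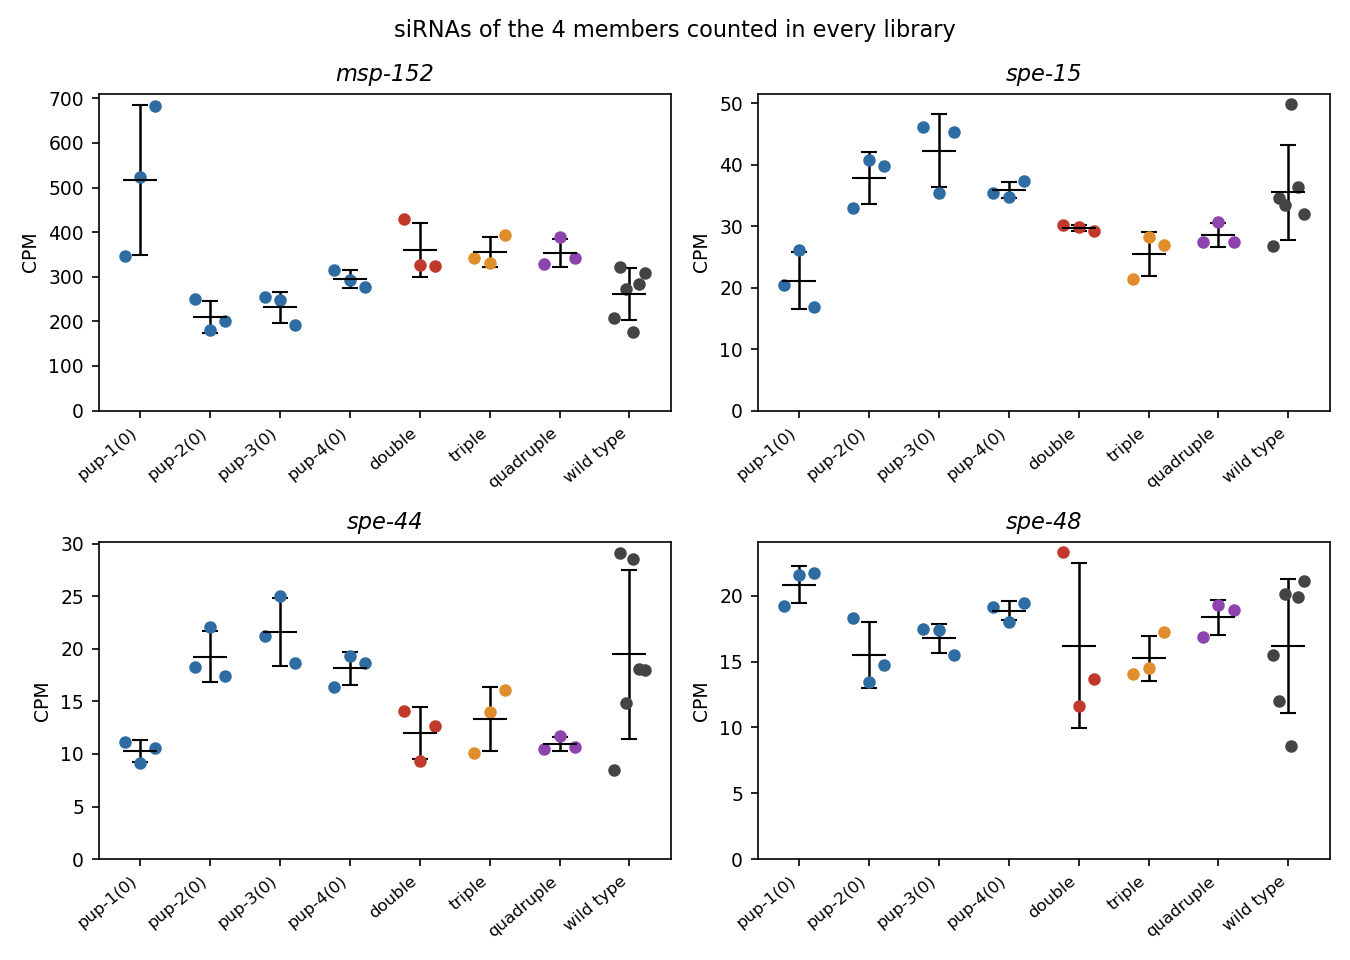
siRNA level in CPM (linear axes from 0) of the 4 genes counted in each library, with 1 point per library and the mean and SD of each genotype as a bar, double, triple and quadruple standing for the mutants that lack *pup-1* and *pup-2*, these and *pup-3*, and all 4 genes. *msp-152* reaches 346 to 682 CPM in *pup-1(0)* and 321 CPM at most in wild type, and *spe-15* is lowest in *pup-1(0)* (16.8 to 26.1 CPM).

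Among the major sperm protein genes, *msp-152* (WBGene00003470), a 381-base coding sequence on chromosome II from 4933027 to 4933410 on the plus strand, had 68550 counts over the 27 libraries, the most of the 50 genes. Per kb of coding sequence its siRNAs averaged 1358 ± 441 CPM in *pup-1(0)* (SD, n = 3) and 686 ± 151 CPM in wild type (SD, n = 6). The next genes per kb among those counted in every library were *spe-48* at 16.02 ± 5.02 CPM per kb, *spe-44* at 15.3 ± 6.32 and *spe-15* at 9.71 ± 2.12 in wild type, and these 3 overlapped within 1 SD.

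The *msp-152* siRNAs had 346, 524 and 682 CPM in *pup-1(0)*, 430, 325 and 323 CPM in *pup-1/-2(0)*, 343, 330 and 393 CPM in the triple mutant and 328, 389 and 343 CPM in the quadruple mutant, against 176 to 321 CPM in wild type with a median of 277. Every library of these 4 mutants was above every wild-type library, as for 14.6%, 11.1%, 13.2% and 16.8% of all sRNAs tested. The log2 fold change in *pup-1(0)* was 0.99 (SE 0.18, adjusted p = 0.000134, edgeR), just under the fold threshold, and it passed that threshold in fits without *pup-1(0)* replicate 1 or without wild-type replicate 3, 5 or 6, or with library totals as the only scaling (1.06). In the other 3 mutants it was 0.46, 0.44 and 0.43 and missed the adjusted p threshold (0.0553, 0.0713 and 0.0684, edgeR). The siRNAs of *msp-152* had 250, 181 and 200 CPM in *pup-2(0)*, 254, 248 and 192 CPM in *pup-3(0)* and 316, 292 and 278 CPM in *pup-4(0)*, all inside the wild-type range.

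The other 18 listed *msp* genes were sparse and summed to 27.3 and 29.8 CPM in *pup-1/-2(0)* replicates 2 and 3 and 52.2 CPM in wild-type replicate 1, against 0.217 to 6.99 CPM in the other 24 libraries. Only *msp-45*, *msp-50*, *msp-56* and *msp-81* of them were tested, and none was DA in the fit of all 27 libraries by genotype alone. *msp-81* and *msp-56* lie near *nspd-2* on chromosome IV, between 9836034 and 9844272, with the untested *msp-10* in the same stretch. The siRNAs of *msp-81* had 0, 8.87 and 10.5 CPM in *pup-1/-2(0)*, 0, 1.42 and 2.48 CPM in the triple mutant and 1.85, 0.867 and 2.34 CPM in the quadruple mutant, against 9.17 CPM in wild-type replicate 1 and 0 to 0.260 CPM in the other wild-type libraries. The quadruple mutant therefore lay above wild-type replicates 2 to 6 and below replicate 1. *msp-45* had 0.166, 6.76 and 2.36 CPM in *pup-1/-2(0)*, against 10.6 CPM in wild-type replicate 1 and 0 to 0.297 CPM in the others. *msp-50* had 0.331, 3.59 and 4.38 CPM in *pup-1/-2(0)*, against 3.53 CPM in wild-type replicate 1 and 0.260 to 0.816 CPM in the others. *msp-56* had 0.166, 0.211 and 3.37 CPM in *pup-1/-2(0)*, against 4.94 CPM in wild-type replicate 1 and 0 to 0.223 CPM in the others. All 4 were thus high in *pup-1/-2(0)* replicate 3 and wild-type replicate 1, and all but *msp-56* also in *pup-1/-2(0)* replicate 2. Since *msp* genes are near-identical copies and the handling of reads that map to several genes is not given in the sources used here, the share of each single *msp* gene is uncertain.

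The sperm protein phosphatase genes *gsp-3* (WBGene00021113) and *gsp-4* (WBGene00020187), at 4709259 to 4710712 and 3838237 to 3839673 on the minus strand of chromosome I, encode closely related type 1 phosphatases of male meiosis and sperm motility, so reads that fit both are uncertain. The siRNAs of *gsp-3* had 0.331, 1.69 and 2.02 CPM in *pup-1/-2(0)* and 2.44, 1.64 and 0.779 CPM in the quadruple mutant, against 0.705 CPM in wild-type replicate 1 and 0 to 0.219 CPM in the other wild-type libraries. All 3 quadruple libraries were above every wild-type library, as for 16.8% of all sRNAs tested, and *pup-1/-2(0)* replicate 1 was not. The wild-type value next to them was 1 count in replicate 1. There 3 counts were worth 2.12 CPM, more than quadruple replicates 2 and 3 had, so this order is within counting error. *gsp-3* rose in *pup-1/-2(0)* (log2 fold change 3.15, SE 0.89, adjusted p = 0.00803, edgeR) and likewise in the quadruple mutant (3.42, SE 0.85, adjusted p = 0.00286, edgeR), where the call was lost with the replicate number as a block (3.68, adjusted p = 0.0533, edgeR). Since no wild-type library had more than 3 counts of *gsp-3*, the ratio of pooled counts over pooled library sizes, in which deeper libraries weigh more, is given too: 9.31 (95% counting interval 3.66 to 28.1) from 22 counts in *pup-1/-2(0)* and 6 in wild type, and 11.2 (4.90 to 31.5) from 74 counts in the quadruple mutant and the same 6. The ratios of the group means, in which each library weighs the same, were 7.54 and 9.06. *gsp-3* reached the level that the filter on low counts asks for only in libraries of these 2 mutants. Its entry into the test and its calls are thus not independent.

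The siRNAs of *gsp-4* had 0, 2.75 and 3.03 CPM in *pup-1/-2(0)* and 2.61, 1.16 and 0.425 CPM in the quadruple mutant, against 1.41 CPM in wild-type replicate 1 and 0 to 0.293 CPM in the other wild-type libraries. Both mutants overlapped wild type through replicate 1. Like *gsp-3*, *gsp-4* reached the level of the filter only in libraries of these 2 mutants, so its entry into the test and its call are not independent. *gsp-4* rose in *pup-1/-2(0)* (log2 fold change 2.997, SE 1.09, adjusted p = 0.0364, edgeR; pooled ratio 9.84, 4.42 to 24.8; ratio of group means 5.29) and missed the threshold in the quadruple mutant (2.54, SE 1.06, adjusted p = 0.0677, edgeR). The call in *pup-1/-2(0)* was lost in 8 of the 27 fits that each left out 1 library, and the fitted value turned to -5.46 with 6 factors and to -3.43 without the 3 libraries of high sparse siRNAs, when the 1 *pup-1/-2(0)* library left was at 0.

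The *nspd* genes encode small peptides of sperm whose function is little known. The siRNAs of *nspd-4* (chromosome II, 4842608 to 4842823) had 0.331, 4.01 and 6.07 CPM in *pup-1/-2(0)*, against 3.53 CPM in wild-type replicate 1 and 0 to 0.0742 CPM in the other wild-type libraries. Those of *nspd-7* (chromosome IV, 10268975 to 10269187) had 0.828, 9.51 and 12.5 CPM in *pup-1/-2(0)*, against 7.05 CPM in wild-type replicate 1 and 0 to 0.371 CPM in the others. In both cases *pup-1/-2(0)* replicates 2 and 3 were above every wild-type library and replicate 1 was below wild-type replicate 1. *nspd-4* rose by a log2 fold change of 3.75 (SE 1.09, adjusted p = 0.00944, edgeR; pooled ratio 20.7, 9.41 to 53.7) and *nspd-7* by 3.51 (SE 1.04, adjusted p = 0.0103, edgeR). Wild-type replicate 1 was the shallowest wild-type library (2054529 counts) and so weighed least in the pooled ratio, and the ratio of group means was 5.67 for *nspd-4*, outside that interval, and 6.03 for *nspd-7*.

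The *nspd-7* siRNAs had 3.35, 1.58 and 2.22 CPM in the triple mutant and 2.78, 1.54 and 2.05 CPM in the quadruple mutant, above wild-type replicates 2 to 6 and below replicate 1. The siRNAs of *nspd-5*, the most counted sparse gene after *ssp-34*, had 1.49, 24.1 and 30.3 CPM in *pup-1/-2(0)*, 0.670, 2.21 and 2.74 CPM in the triple mutant and 3.37, 3.23 and 2.76 CPM in the quadruple mutant, against 21.9 CPM in wild-type replicate 1 and 0 to 1.04 CPM in the others. *nspd-5* missed the threshold in *pup-1/-2(0)* (log2 fold change 2.73, SE 1.0998, adjusted p = 0.0570, edgeR). *nspd-2* had 0.166, 6.34 and 8.09 CPM in *pup-1/-2(0)*, against 7.05 CPM in wild-type replicate 1 and 0 to 0.520 CPM in the others, and missed it as well (2.59, SE 1.14, adjusted p = 0.0810, edgeR).

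Among the organelle genes, *spe-4* (chromosome I, 7454660 to 7456953) encodes a presenilin of the fibrous body-membranous organelles. Its siRNAs had 0.331, 4.86 and 3.20 CPM in *pup-1/-2(0)*, against 2.82 CPM in wild-type replicate 1 and 0 to 0.371 CPM in the other wild-type libraries, and rose by a log2 fold change of 3.11 (SE 1.04, adjusted p = 0.0224, edgeR; pooled ratio 11.2, 5.54 to 24.9; ratio of group means 4.78, outside that interval). *pup-1/-2(0)* replicates 2 and 3 were above every wild-type library and replicate 1 was not.

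*spe-10* (WBGene00004964, chromosome V, 10384250 to 10385740) was the only gene of the 21 that was DA and lower in a mutant in the fit of all 27 libraries by genotype alone. Its siRNAs had 0, 0.163 and 0 CPM in *pup-1(0)*, against 38.1 CPM in wild-type replicate 1 and 0 to 0.668 CPM in the other wild-type libraries, 3 of which were at 0. Of 66 wild-type counts, 54 were in replicate 1, and *pup-1(0)* held 1 count. The fitted log2 fold change was -6.16 (SE 2.30, adjusted p = 0.0396, edgeR), the pooled ratio 0.0379 (0.000946 to 0.219), the ratio of group means 0.00838, and the call was lost without wild-type replicate 1, without any one *pup-1(0)* library and without triple replicate 3.

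The siRNAs of *ssp-34* (chromosome IV, 10738279 to 10738602) had 1.99, 16.9 and 18.2 CPM in *pup-1/-2(0)*, 2.01, 5.20 and 4.69 CPM in the triple mutant and 4.63, 3.27 and 3.05 CPM in the quadruple mutant, against 52.2 CPM in wild-type replicate 1 and 0 to 0.891 CPM in the others. All 9 libraries of these 3 mutants were above wild-type replicates 2 to 6, and all were below replicate 1. *ssp-31*, of the same class, had 0.331, 3.38 and 4.55 CPM in *pup-1/-2(0)*, against 17.6 CPM in wild-type replicate 1 and 0 to 0.779 CPM in the others. Neither gene was DA in the fit of all 27 libraries by genotype alone. With 6 factors of unwanted variation added to that fit, *ssp-34* rose in *pup-1(0)* (1.77), *pup-1/-2(0)* (2.00), the triple (2.87) and the quadruple mutant (1.75), and *ssp-31* rose in the triple (4.30) and the quadruple mutant (2.36). With genotype alone the fitted log2 fold change of *ssp-34* in *pup-1/-2(0)* was 0.72 (SE 1.17) and that of *ssp-31* 0.29 (SE 1.24).

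Among the genes of sperm activation and fertilization, *spe-51*, a secreted sperm protein needed at fertilization, was counted in 26 of 27 libraries. Its siRNAs had 1.34, 5.20 and 4.17 CPM in the triple mutant, against 0.633 to 2.86 CPM in wild type with a median of 1.44. Triple replicates 2 and 3 were above every wild-type library and replicate 1 was within them. *spe-51* rose in the triple mutant (log2 fold change 1.27, SE 0.49, adjusted p = 0.0498, edgeR), and its call was kept in 5 of the 27 fits that each left out 1 library. *spe-8*, a tyrosine kinase of the pathway that activates spermatids, had 0, 2.11 and 2.36 CPM in *pup-1/-2(0)*, against 4.94 CPM in wild-type replicate 1 and 0 to 0.223 CPM in the others, and *spe-54* had 0.166, 3.38 and 0.843 CPM in *pup-1/-2(0)*, against 3.53 CPM in wild-type replicate 1 and 0 to 0.779 CPM in the others. Neither passed a test.

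**Figure D4:**
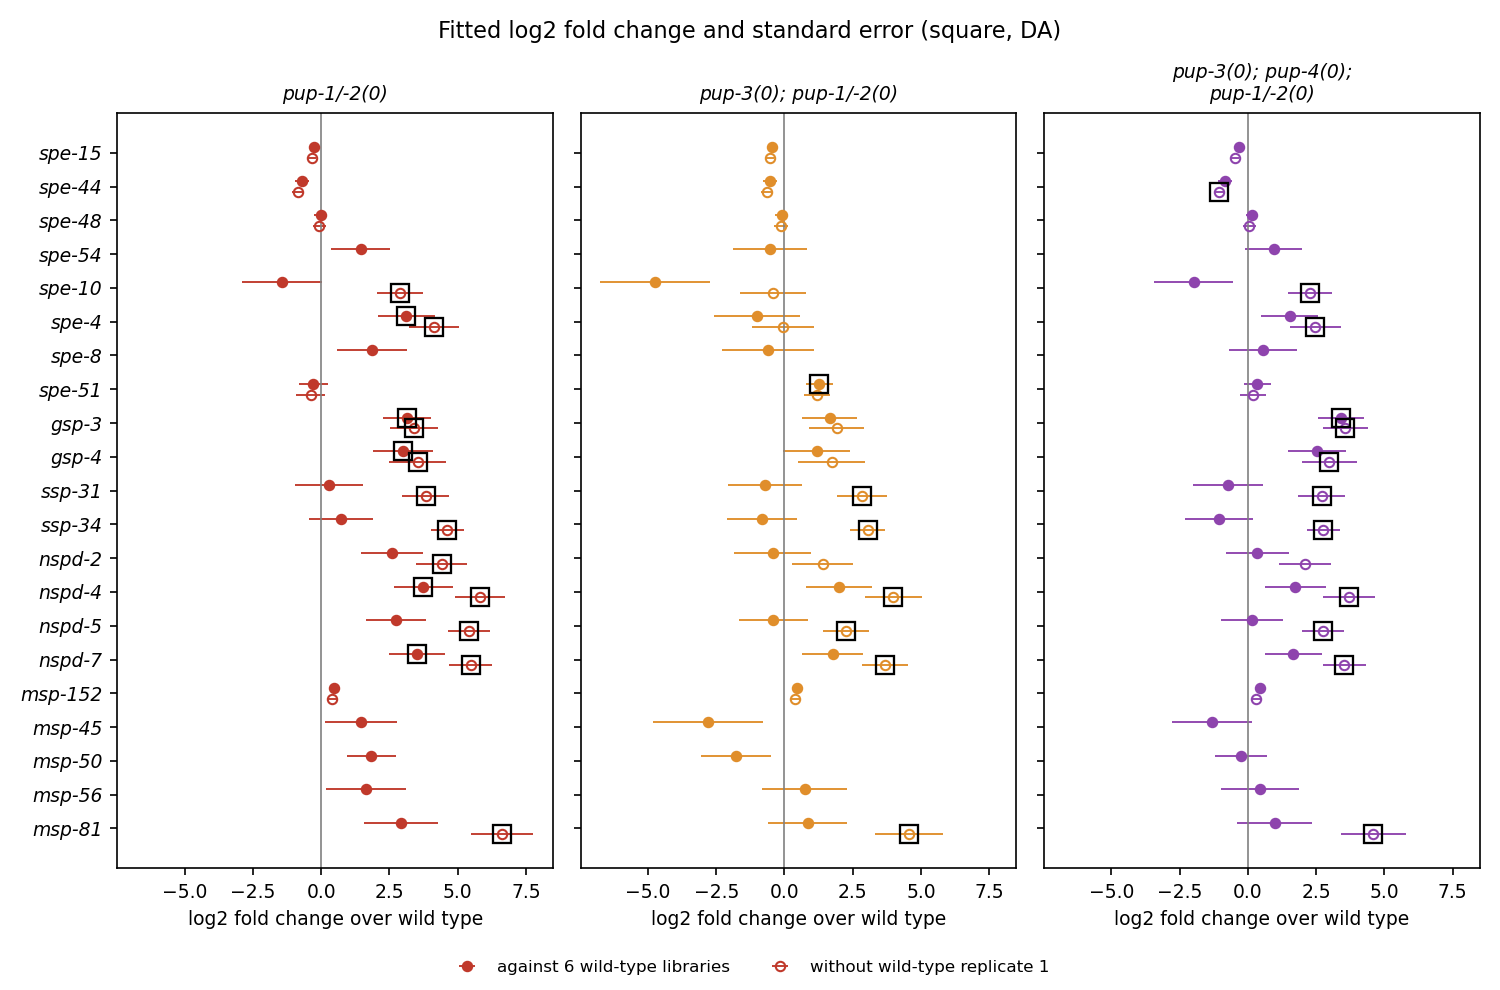
Fitted log2 fold change over wild type with its standard error for the tested genes in the double, triple and quadruple mutants, with all 6 wild-type libraries (filled) and without wild-type replicate 1 (open), squares marking DA. In *pup-1/-2(0)* the count of DA genes is 5 with all wild-type libraries and 11 without replicate 1, when *msp-45*, *msp-50*, *msp-56*, *spe-8* and *spe-54* fall below the filter and have no open point. Genes could pass the filter through the mutant libraries in which they were high.

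Counted over the 21 tested genes, 1 fell and 0 rose in *pup-1(0)*, where edgeR called 13.5% of all sRNAs lower and 7.44% higher. In *pup-1/-2(0)* 5 rose (*gsp-3*, *gsp-4*, *nspd-4*, *nspd-7* and *spe-4*) and 0 fell, against 8.65% of all sRNAs higher and 12.5% lower. The triple mutant had 1 that rose (5.73% of all sRNAs) and the quadruple mutant also 1 (8.30%), with 0 lower in both (11.9% and 12.9%). Of these calls, DESeq2 also made those of *nspd-7*, *nspd-4* and *gsp-3* in *pup-1/-2(0)*, *spe-51* in the triple mutant and *gsp-3* in the quadruple mutant. In *pup-2(0)* edgeR called 0 of the 21, against 0.518% of all sRNAs (0.332% higher and 0.187% lower), with 0 at an unadjusted p under 0.05. In *pup-3(0)* it called 0, against 0.404% (0.259% higher and 0.145% lower), with 3 at an unadjusted p under 0.05, and in *pup-4(0)* it called 0, against 0% higher and 0.0518% lower, with 5 at an unadjusted p under 0.05. DESeq2 called 0 in each of these single mutants. With library totals as the only scaling, 12.6% of all sRNAs were higher and 8.28% lower in the quadruple mutant, and 9.05% and 8.72% in the triple mutant. None of the 21 had every library above, or every library below, wild type in *pup-2(0)* (1.91% above and 1.22% below over all sRNAs), in *pup-3(0)* (2.44% and 1.56%) or in *pup-4(0)* (1.19% and 1.43%). A gene could pass the filter through the libraries in which it was high, so these counts describe the genes tested and not all 50.

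The median log2 fold change of the 21 was -0.79 in *pup-1(0)*, -1.35 in *pup-2(0)*, -1.61 in *pup-3(0)*, -2.25 in *pup-4(0)*, 1.64 in *pup-1/-2(0)*, -0.43 in the triple and 0.35 in the quadruple mutant. Over all siRNAs tested it was between -0.21 and -0.01 in each of the 7 comparisons. All 7 share the wild-type libraries, and leaving out 1 library at a time moved the median of *pup-1/-2(0)* between 1.14 and 3.68, that of the quadruple mutant between 0.059 and 2.59 and that of *pup-4(0)* between -2.75 and -0.034. The other 4 medians turned sign, running from -2.67 to 0.75 in *pup-1(0)*, -2.10 to 0.29 in *pup-2(0)*, -1.93 to 0.041 in *pup-3(0)* and -0.55 to 1.56 in the triple mutant.

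Without wild-type replicate 1, a fit chosen after its levels were seen, 16 of the 50 genes passed the filter. The sparse ones among them could pass it through the double, triple or quadruple libraries in which they were high. Being kept and being called higher were then not independent, so these counts cannot be read against the shares beside them. In *pup-1/-2(0)* 11 of them rose (14.2% of all sRNAs), 6 in the triple (6.91%) and 10 in the quadruple mutant (10.1%), and *spe-44* alone fell, both in *pup-1(0)* (15.5% lower) and the quadruple mutant (14.9%). The log2 fold changes of *msp-81* were then 6.62 in *pup-1/-2(0)*, 4.56 in the triple and 4.59 in the quadruple mutant, those of *nspd-7* 5.47, 3.68 and 3.54, and those of *ssp-34* 4.62, 3.05 and 2.77. Those of *gsp-3* in *pup-1/-2(0)* and the quadruple mutant were 3.39 and 3.58. In the *pup-2*, *pup-3* and *pup-4* single mutants edgeR again called 0.

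The calls in *pup-1/-2(0)* rested on its replicates 2 and 3. Without replicate 2, *gsp-3*, *nspd-4* and *nspd-7* were DA (6.63% of all sRNAs higher), without replicate 3 *nspd-7* alone (6.97%), and with both of these and wild-type replicate 1 left out *ssp-34* alone (2.06, 7.99%), a fit in which the single *pup-1/-2(0)* library was assumed to vary like the other groups. With the same 3 libraries left out, 7 genes rose in the triple (9.09%) and 12 in the quadruple mutant (13.7%), of 19 tested. Here too genes could pass the filter through the libraries in which they were high, so these counts cannot be read against the shares.

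In the quadruple mutant the replicate numbers paired with those of wild type, by the correlation of same-numbered libraries. With the number as a block, 0 of the 21 genes were DA (8.97% of all sRNAs higher and 13.6% lower), and the call of *gsp-3* was lost (log2 fold change 3.68, SE 1.42, adjusted p = 0.0533, edgeR). Only *gsp-3* and *spe-44* then had an unadjusted p under 0.05. The numbers 4 to 6 occur in wild type alone, so the block absorbed those libraries. The mutants were thereby compared with wild-type replicates 1 to 3. An effect of pairing and one of this smaller wild-type group, which holds replicate 1, cannot be told apart.

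The 50 listed genes can be compared with wild-type replicates 2 to 6 without a filter or a test, a choice made after the levels of replicate 1 were seen. In the quadruple mutant, 18 had every library above every one of these 5, as did 23.3% of the 10062 siRNA rows, and 11 did in *pup-1/-2(0)* (15% of rows), 4 in the triple mutant (14.8%), 4 in *pup-2(0)* (3.41%) and 2 in *pup-1(0)* (15%). Neither *pup-3(0)* nor *pup-4(0)* had any (2.5% and 1.7%). The reverse, every mutant library below, held for 2 genes in *pup-1(0)* (17.4% of rows), *pup-1/-2(0)* (17.2%) and the quadruple mutant (21%), and for 1 in the triple mutant (18.5%). With replicate 1 kept, above all 6 wild-type libraries were 2 of the 21 tested in the quadruple mutant (16.8% of all sRNAs) and 1 each in *pup-1(0)* (14.6%), *pup-1/-2(0)* (11.1%) and the triple mutant (13.2%).

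The steps between mutants compare no wild-type library, though all libraries shared 1 estimate of the spread. Of the 21 genes, edgeR called 0 in *pup-1/-2(0)* over *pup-1(0)*, against 4.12% of all sRNAs (3.33% higher and 0.788% lower). It called 0 for the triple over the double mutant (0.487%, 0.187% higher and 0.301% lower) and 0 for the quadruple over the triple mutant (0.612%, 0.363% higher and 0.249% lower). The unadjusted p was under 0.05 for 13, 6 and 0 of them, and DESeq2 called 1 (*nspd-5*), 0 and 0. Without wild-type replicate 1, 9 rose in *pup-1/-2(0)* over *pup-1(0)* (8.26%), with the same limit from the filter. In *pup-1/-2(0)* over *pup-1(0)*, 6 of the 21 had every library above (10.8% of all sRNAs), among them *ssp-34* (log2 fold change 3.36, SE 1.57), *nspd-4* (4.17, SE 1.40) and *spe-15* (0.49, SE 0.19). In the triple over the double mutant 2 of the 21 had every library below (8.24%), and 2 had every library above for the quadruple over the triple mutant (21%). In the triple over the double mutant the fitted changes of *spe-4* (-4.12, SE 1.48) and *msp-50* (-3.62, SE 1.30) had the lowest unadjusted p-values of the 21, 0.0105 and 0.0104, with an adjusted p of 0.245 each (edgeR).

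Of a list of 6 genes of 26-nt and sperm siRNA pathways, 5 were listed and tested. In all, 5 rose in the quadruple mutant (8.30% of all sRNAs higher), 4 in *pup-1/-2(0)* (8.65%) and 2 each in *pup-1(0)* (7.44%) and the triple mutant (5.73%). The siRNAs of *alg-3* rose in *pup-1/-2(0)* (1.16, 5.91 and 4.55 CPM; log2 fold change 3.89, adjusted p = 0.00480, edgeR) and also the quadruple mutant (3.62, 3.52 and 1.27 CPM; 3.44, adjusted p = 0.00989, edgeR), against 2.12 CPM in wild-type replicate 1 and 0 to 0.520 CPM in the others. *alg-4* rose in the same 2 mutants (3.76 and 3.30), as did *wago-10*, another sperm Argonaute (3.10 and 2.71). Like most of the sparse genes above, all 3 were highest among the wild-type libraries in replicate 1. *rrf-3*, an RNA-dependent RNA polymerase of 26-nt siRNAs, was abundant and rose in *pup-1(0)* (1.33), *pup-1/-2(0)* (1.01), the triple mutant (1.02) and the quadruple mutant (1.18). *ergo-1*, on the list for its 26-nt siRNAs but an Argonaute of oocytes and embryos and not of sperm, rose in *pup-1(0)* (1.30), the triple mutant (1.02) and the quadruple mutant (1.01).

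The lists that follow are read against the same shares of all sRNAs higher and lower: 7.44% and 13.5% in *pup-1(0)*, 0.332% and 0.187% in *pup-2(0)*, 8.65% and 12.5% in *pup-1/-2(0)*, 5.73% and 11.9% in the triple mutant and 8.30% and 12.9% in the quadruple mutant. Of 14 other sperm genes, 9 were listed and 5 tested, and 1 was DA: *zipt-7.1*, a zinc transporter of sperm activation, fell in the quadruple mutant (21.9, 26.5 and 24.1 CPM, against 24.0 CPM in wild-type replicate 1 and 50.2 to 65.9 CPM in the other wild-type libraries; log2 fold change -1.105, adjusted p = 0.00292, edgeR). Of 9 genes of germline sex determination, 6 were tested and *fem-2*, a phosphatase that promotes male fate, rose in *pup-1(0)* (1.17). Of the 12 oocyte and eggshell genes tested, 4 rose and 1 fell in *pup-1(0)*, 0 rose and 1 fell in *pup-1/-2(0)*, and 3 rose and 1 fell in both the triple and the quadruple mutant. Of the 6 somatic genes tested, 5 rose in the quadruple mutant, 4 rose and 1 fell in *pup-1/-2(0)* and in the triple mutant, 1 rose and 1 fell in *pup-1(0)* and 3 rose in *pup-2(0)*. Of 8 embryo miRNAs, 3 fell in the quadruple mutant and 1 in *pup-1/-2(0)*, and of the 8 miRNAs of adult and other tissues 3 fell in *pup-1(0)* and 1 each in the triple and quadruple mutants.

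By position, 22 of the 50 listed genes were on chromosome IV (44%, against 16.2% of the protein-coding rows), 13 on I (26%, 16.7%), 10 on II (20%, 18.3%), 4 on V (8%, 20.6%), 1 on III (2%, 14.9%) and 0 on X (13.3%). No coding sequence of the 50 overlapped that of another protein-coding gene in the annotation.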

How the data were processed

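Per the study's methods, RNA was treated with a 5′ polyphosphatase before library preparation, and the authors trimmed reads with cutadapt (quality cutoff 20, 15 to 26 nt kept), mapped them with HISAT2 and summed reads antisense to coding sequence per gene with smalldisco. The authors deposited these values as raw counts, 1 per sRNA and library, without normalization. How reads that map to several genes were counted is not given in the sources used here.

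Genotypes and replicate numbers came from the labels. Symbols, positions and coding lengths came from the Ensembl 115 annotation of WBcel235, which is not the release used for counting. No sequences are printed because no genome was used here. The members and lists were chosen with earlier results of these data known. Named genes were the 10 tested members of highest mean wild-type level, those DA in a mutant over wild type (up to 10 each way), *gsp-3*, *gsp-4*, every tested *msp* or *msd* gene, the largest changes of each role in *pup-1(0)* or the quadruple mutant, and up to 3 DA genes of each related list by size of change. The untested members, *spe-8*, *spe-54*, *nspd-2*, *rrf-3* and *ergo-1* were named after their values were seen. Some results are not reported here.

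The software was edgeR 4.0.16 on limma 3.58.1 and, as an alternative, DESeq2 1.42.0, all under R 4.3.3. Plots were made in matplotlib 3.10.9. sRNAs were kept by filterByExpr (minimum count 10, genotypes as groups), scaled by TMM and fitted with robust quasi-likelihood and genotype as the only term in all 27 libraries, in 10 comparisons. Benjamini-Hochberg adjustment was over 9645 sRNAs. P-values set each difference against a spread between libraries of the same genotype that was estimated over all 27 libraries, and that spread need not hold in each genotype. The steps were tested on simulated data for the quadruple mutant over wild type. No library stood apart in that simulation, so it does not bear on the calls of the sparse genes.

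Same-numbered libraries were checked for pairing by the correlation of their deviations from the genotype means. In the quadruple mutant and wild type it was 0.43, 0.16 and 0.19, each over 0.1, and no other comparison had all 3 over 0.1. A pairing is thus drawn from these values alone, and the labels do not give one.

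The authors used EDASeq and RUVSeq with 6 factors, by functions not given in the sources used here, so factors were an alternative. Other alternatives were DESeq2 and its size factors, total counts as scaling, other filters, siRNAs alone, the replicate number as a block, either group of 3 wild-type replicates, only the compared genotypes and each library left out.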

Additional observations from a re-analysis of the deposited data

Results flagged for a closer look

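In wild type, replicate 1 was far from the other 5 libraries by Dixon's test for 16 of the 21 tested genes, and in each of the 16 it was the highest. Of these, *msp-45*, *msp-50*, *msp-56*, *spe-8* and *spe-54* fell below the filter on low counts without replicate 1. The count of 16 is thus partly set by the filter. The cutoff flags about 1 in 20 groups of 6 normally distributed values. These levels come from low counts with many zeros, so that rate does not hold for them. In replicate 1, the shallowest wild-type library, *gsp-3* had 1 count and *gsp-4* had 2. Its siRNA level was 52.2 CPM for *ssp-34*, 38.1 for *spe-10*, 21.9 for *nspd-5*, 17.6 for *ssp-31*, 10.6 for *msp-45*, 9.17 for *msp-81*, 7.05 for *nspd-2* and 7.05 for *nspd-7*. It was 4.94 CPM for *msp-56*, 4.94 for *spe-8*, 3.53 for *msp-50*, 3.53 for *nspd-4*, 3.53 for *spe-54*, 2.82 for *spe-4*, 1.41 for *gsp-4* and 0.705 for *gsp-3*. The next highest wild-type level of these genes was between 0.0742 CPM for *nspd-4* and 1.04 CPM for *nspd-5*. Of 3 sums over the listed genes, that of the 46 sparse genes was flagged, at 230.6 CPM in replicate 1 against 10.1 CPM in the next library.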

How the results depend on the processing

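In this section, the percentages after a count are the shares of all sRNAs tested in that fit that were DA in the direction named, and counts are of genes that rose unless they are said to have fallen, except that the counts with 1 library left out at a time hold both directions. Counts of DA genes in each mutant over wild type and the medians of their log2 fold changes moved with the setting, and the cause was not tested except where fewer genes or libraries entered by construction. In each fit with a filter, genes could pass it through the libraries in which they were high. With total counts as the only scaling, 2 of 21 genes were DA in the quadruple mutant (12.6%), the 1 in *pup-1(0)* rose (8.52%), and the median was -1.86 in *pup-4(0)* and -0.035 in the triple mutant. A minimum count of 50, which left 6 genes, gave 0 DA in *pup-1(0)* (9.05% higher, 15.3% lower), 1 in the double (9.38%), 0 in the triple (7.52%) and 0 in the quadruple mutant (10.2%), with medians of -0.19 in *pup-2(0)*, -0.072 in *pup-3(0)*, -0.068 in *pup-4(0)* and -0.071 in the quadruple mutant, where the sign turned. A minimum of 10 CPM in 3 libraries, which also left 6 genes, gave 1 in the double (9.07%), 0 in the triple (6.95%) and 0 in the quadruple mutant (9.95%) and medians of -0.17 in *pup-2(0)*, -0.042 in *pup-3(0)*, -0.051 in *pup-4(0)* and -0.068 in the quadruple mutant. Without a filter, which kept 50 genes, 9 were DA in the double (4.48%), 0 in the triple (2.30%) and 2 in the quadruple mutant (3.56%), with medians of -0.85 in *pup-2(0)* and -1.40 in *pup-4(0)*. DESeq2, with 48 genes, called 0 in *pup-1(0)* (3.56% higher, 8.34% lower) and 1 in the double mutant over *pup-1(0)* (2.80%), with medians of -0.72 in *pup-2(0)*, -0.43 in *pup-3(0)*, -1.85 in *pup-4(0)* and -0.063 in the quadruple mutant. A fit of only the compared genotypes called 0 of 5 genes in *pup-1(0)* (6.68% higher, 11.8% lower), 0 of 15 in the double (6.04%), 0 of 8 in the triple (5.90%) and 0 of 16 in the quadruple mutant (6.38%), with medians of -0.049 in *pup-2(0)*, 0.034 in *pup-3(0)* and 0.023 in *pup-4(0)*. siRNAs alone gave, of 21, 2 that fell in *pup-1(0)* (19.1%), 2 in the quadruple mutant (10.3%) and 1 in the double mutant over *pup-1(0)* (6.80%), with medians of -0.86 in *pup-2(0)* and -1.73 in *pup-4(0)*. DESeq2 size factors in edgeR kept every count within 1.5 times.

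With the replicate block, 0 of 21 genes were DA in the double mutant (6.84% higher, 10.4% lower) and 0 in the quadruple mutant (8.97%, 13.6%), and medians were -1.66 in *pup-1(0)*, -2.47 in *pup-2(0)*, -2.60 in *pup-3(0)*, -3.08 in *pup-4(0)*, -0.83 in the triple and -0.47 in the quadruple mutant. The block kept the call of *spe-10* in *pup-1(0)* and that of *spe-51* in the triple mutant. Because the numbers 4 to 6 occur in wild type alone, this fit compared each mutant with wild-type replicates 1 to 3. Outside the quadruple mutant and wild type no comparison passed the pairing check, and the labels do not say whether the replicate numbers pair.

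With wild-type replicates 1 to 3 alone, 2 of 21 genes fell in *pup-1(0)* (12.4%), 1 fell in *pup-4(0)* (1.77%), 0 were DA in the double mutant (6.88% higher) and 2 were in the triple mutant, 1 up (5.52%) and 1 down (11.6%), and medians were -1.69 in *pup-1(0)*, -2.67 in *pup-2(0)*, -2.38 in *pup-3(0)*, -3.30 in *pup-4(0)* and -0.48 in the quadruple mutant. With replicates 4 to 6 alone, of 16 genes 2 fell in *pup-1(0)* (17.5%), 11 rose in the double (13.7%) and 4 in the triple mutant (7.15%), 8 were DA in the quadruple mutant, 7 up (8.37%) and 1 down (13.9%), 9 rose in the double mutant over *pup-1(0)* (9.20%) and 1 fell in the triple over the double mutant (1.61%). Medians were then 0.36 in *pup-1(0)*, 0.012 in *pup-2(0)*, -0.10 in *pup-3(0)*, -0.24 in *pup-4(0)*, 3.50 in the double, 1.24 in the triple and 2.28 in the quadruple mutant, and *spe-10* turned to 2.41 in the double mutant and *ssp-34* to 2.70 in the triple and 2.41 in the quadruple mutant.

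With 6 factors estimated from replicate groups, 3 of 21 genes rose in *pup-1(0)* (7.79%), where *spe-10* was not DA, 3 in the double (8.78%), 7 in the triple (8.34%) and 9 in the quadruple mutant (11.3%), and medians were 0.77 in *pup-1(0)*, 0.083 in *pup-2(0)*, 0.23 in *pup-3(0)*, 0.0069 in *pup-4(0)*, 1.95 in the triple and 1.75 in the quadruple mutant. Genes that turned and were called in 1 of the 2 fits were *ssp-34* (1.77) and *nspd-5* (2.52) in *pup-1(0)*, *gsp-4* (-5.46) in the double mutant, *ssp-31* (4.30), *ssp-34* (2.87) and *nspd-5* (2.58) in the triple mutant and *ssp-31* (2.36) and *ssp-34* (1.75) in the quadruple mutant.

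With wild-type replicate 1 and double replicates 2 and 3 left out together, a choice made after seeing the data, of 19 genes 1 rose in *pup-1(0)* (*nspd-7*, 8.29%), where *spe-10* was not DA, 1 in *pup-2(0)* (0.893%), 1 in the double (7.99%), 7 in the triple (9.09%) and 12 in the quadruple mutant (13.7%). Medians were 0.49 in *pup-1(0)*, 0.20 in *pup-2(0)*, -0.11 in *pup-3(0)*, -0.17 in *pup-4(0)*, 1.82 in the triple and 2.80 in the quadruple mutant. Genes that turned were *ssp-34* (1.99) in *pup-2(0)*, *gsp-4* (-3.43) in the double mutant, *ssp-31* (2.99), *ssp-34* (3.20) and *nspd-5* (2.42) in the triple mutant and *spe-10* (2.43), *ssp-31* (2.89) and *ssp-34* (2.94) in the quadruple mutant.

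Leaving out each library in turn gave 0 to 3 DA genes in *pup-1(0)*, 1 to 11 in the double, 0 to 6 in the triple and 1 to 11 in the quadruple mutant, 0 to 9 in the double mutant over *pup-1(0)*, and 0 in the *pup-2*, *pup-3* and *pup-4* single mutants, the triple over the double and the quadruple over the triple mutant. Medians ran from -2.67 to 0.75 in *pup-1(0)*, -2.10 to 0.29 in *pup-2(0)*, -1.93 to 0.041 in *pup-3(0)*, -2.75 to -0.034 in *pup-4(0)*, 1.14 to 3.68 in the double, -0.55 to 1.56 in the triple and 0.059 to 2.59 in the quadruple mutant. The value of *spe-10* ran from -2.77 to 2.89 in the double and -2.64 to 2.27 in the quadruple mutant, *ssp-31* from -1.77 to 2.83 in the triple and -1.26 to 2.71 in the quadruple mutant, *ssp-34* from -1.15 to 3.05 in the triple and -1.35 to 2.77 in the quadruple mutant, and *nspd-5* from -0.79 to 2.27 in the triple mutant, each highest without wild-type replicate 1. Of the 8 calls, *nspd-7* in the double and *gsp-3* in the quadruple mutant were kept in all 27 of these fits, *gsp-3* and *nspd-4* in the double mutant in 26 (not without double replicate 3), *spe-4* in 24, *spe-10* in *pup-1(0)* in 22 and *gsp-4* in 19. Depth limits the 46 sparse genes, since 3 counts were worth 0.144 to 3.74 CPM.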
